A study of Mus musculus with 37 samples.

Results

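The 10 genes described here encode the core machinery of inflammatory and lytic cell death in the mouse heart after cardiac arrest. Nlrp3, Pycard, Casp1, Casp4, Gsdmd, Il1b and Il18 belong to inflammasome signalling and pyroptosis, and Ripk1, Ripk3 and Mlkl to necroptosis. The members were chosen by gene symbol, and each symbol stood on 1 of the 56748 gene rows of the expression table. All 10 passed the filter on low values, which kept 16530 genes with at least 0.5 FPKM (fragments scaled to transcript length and library size) in at least 4 libraries.

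RNA was taken in bulk from the left ventricle, without the apex, of male and female C57BL/6J mice aged 8 to 10 weeks. Naive mice (n = 5) received isoflurane anaesthesia alone. Adr mice (n = 4 at each of 0.5, 1, 3 and 7 d, named sham in the labels) were also intubated and ventilated, and had saline and then adrenaline injected into the left ventricle. Arrest mice (n = 4 at each of the same times) had potassium chloride in place of saline, lay in asystole for 8 min, and were resuscitated with adrenaline and chest compressions. Isoflurane was common to all 9 groups, and intubation, ventilation, ventricular puncture and adrenaline were common to Adr and Arrest. No genetic change was made in any group.

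NLRP3 is a cytosolic sensor that, once assembled with the adaptor ASC (Pycard), activates caspase-1. Caspase-1 matures the cytokine precursors of Il1b and Il18 and cleaves gasdermin D, whose freed end forms pores in the plasma membrane, a death called pyroptosis. The product of Casp4 cleaves gasdermin D without NLRP3, in answer to bacterial lipopolysaccharide in the cytosol. In necroptosis the kinase RIPK1, engaged below the TNF receptor, recruits RIPK3, which phosphorylates the membrane-disrupting pseudokinase MLKL. All these steps act on proteins that are already made, so mRNA levels describe the supply of each component and not the activity of the pathway. In the heart Nlrp3 and Il1b are known chiefly from macrophages, monocytes and neutrophils, and several other members are expressed more broadly.

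The libraries held 13.2 to 30.2 M fragments on genes, and 13475 to 21377 genes above 0. A cardiomyocyte marker sum (6 genes, Myh6 and Tnnt2 among them) of 3642 to 17980 FPKM marked heart muscle in all 37 libraries. T, B and NK cell marker sums reached at most 1.85, 4.72 and 4.31 FPKM. An atrial marker sum (4 genes, Nppa and Myl7 among them) was uneven. It was 13.8 to 32.4 FPKM in Naive, but reached 693 at Adr 1 d, 485 at Adr 3 d, 198 at Adr 7 d and 256 at Arrest 7 d. The part of atrial tissue in the members' levels was not tested. A pair of libraries stood apart from their groups in other ways. Adr 3 d replicate 3 had the lowest cardiomyocyte sum (3642 FPKM, against 8052 or more elsewhere), the lowest mitochondrial share (9.36% of fragments), and the highest leukocyte sum (Ptprc, Laptm5 and Coro1a: 98.7 FPKM, against 10.9 to 37.6). Naive replicate 4 had the fewest genes above 0 (13475) and all 12 neutrophil, 5 T cell, 4 B cell and 4 NK cell markers at 0. Both are kept, and several results that rest on them are given without them too. The Adr 3 d group means and the members' median differences at 3 d are given only with replicate 3 included. In bulk tissue, fewer cells of a type and less RNA per cell cannot be told apart.

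None of the 10 genes passed an adjusted p of 0.05 in any comparison (limma on log2(FPKM + 1), with Benjamini-Hochberg adjustment over 16530 genes). Against Naive, the share of all genes called was 3.21% at Arrest 0.5 d, 7.11% at Arrest 1 d, 0.139% at Arrest 3 d and 0% at Arrest 7 d, with 0 of 10 members called each time. For Adr the same shares were 0.188% at 0.5 d, 0.69% at 1 d, 0% at 3 d and 0% at 7 d, again with 0 of 10 members. A test over all 9 groups together called 3.9% of genes and 0 of 10 members. Of the 160 tests of a member in a 2-group comparison, 11 reached an unadjusted p of 0.05 or less, and the voom fit on recovered fragments gave 14 of 160 at that level and 0 after adjustment. Those 11 belonged to Gsdmd (5), Ripk3 (3), Il18 (2) and Casp1 (1). The share of all genes with an unadjusted p at or under 0.05 ran from 2.52% to 21.7% by comparison. At Arrest 1 d, where most genes were called, it was 21.7%, with 0 of 10 members. It was 18.2% at Arrest 0.5 d and 13.9% at Adr 3 d, with 2 of 10 members each. For Adr 0.5 d and Adr 1 d it was 14% and 14.7%, again with 2 of 10 each. At Arrest 3 d it was 13.7% with 1 of 10, and for Adr 1 d against Adr 7 d 9.68% with 2 of 10. The 11 tests are therefore not read as a result about the members.

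The members' median log2 fold change against Naive ran from -0.09 at Arrest 7 d to 0.27 at Adr 3 d, while the median of all tested genes stayed between 0.01 and 0.04. Of the 80 intervals of a member against Naive, 60 lay wholly between -1 and 1 on the log2 scale. For Ripk1, Casp4, Nlrp3 and Pycard all 8 intervals did so, and for Il1b none did. These are differences of log2(FPKM + 1), and at levels near or under 1 FPKM the added 1 compresses any change. Nlrp3 had means of 0.19 FPKM in Naive and 0.58 at Adr 1 d, for a difference of 0.38. For such a gene an interval inside -1 to 1 does not exclude a doubling. Ripk3 at Arrest 3 d was 0.94 here and 2.32 by voom.

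**Figure D1:**
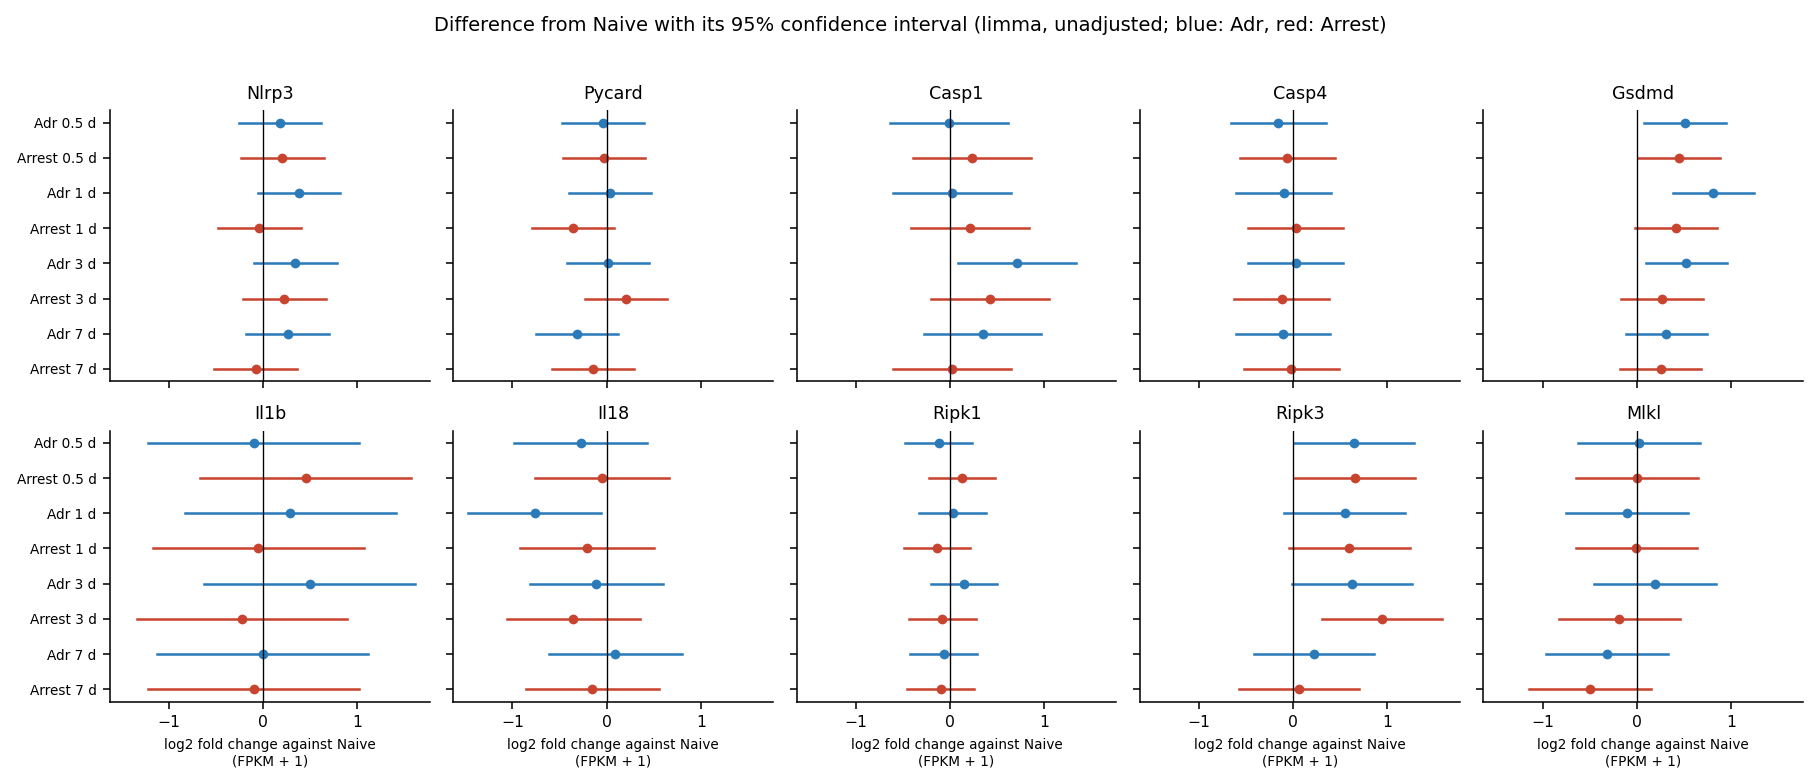
Log2 fold change of each of the 10 genes against Naive (x axis, log2 of FPKM + 1) in the 8 injected groups (y axis), as a point with its unadjusted 95% confidence interval from limma. Blue is Adr and red is Arrest. The Gsdmd and Ripk3 points all lie right of 0, Il1b has the widest intervals, and no difference passed the adjusted threshold. Changes of genes near or under 1 FPKM are compressed on this scale.

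The members were expressed at low levels. Gsdmd had the highest median of FPKM over the 37 libraries (5.42), followed by Mlkl (2.25), Casp4 (2.04), Ripk3 (1.82), Ripk1 (1.77), Pycard (1.59), Casp1 (1.41), Il18 (0.928), Il1b (0.532) and Nlrp3 (0.253). Behind these stood few fragments for some genes. The median library held 17 fragments of Nlrp3, 18 of Il1b and 15 of Il18, against 202 of Gsdmd and 224 of Ripk1. When each gene's 9 group means were ordered, 1 of the 80 gaps between neighbours exceeded the larger of the neighbours' SDs, and that gap was in Il18. Neighbours in that order therefore did not differ beyond their spread in the other 9 genes, which says nothing of groups further apart in it.

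**Figure D2:**
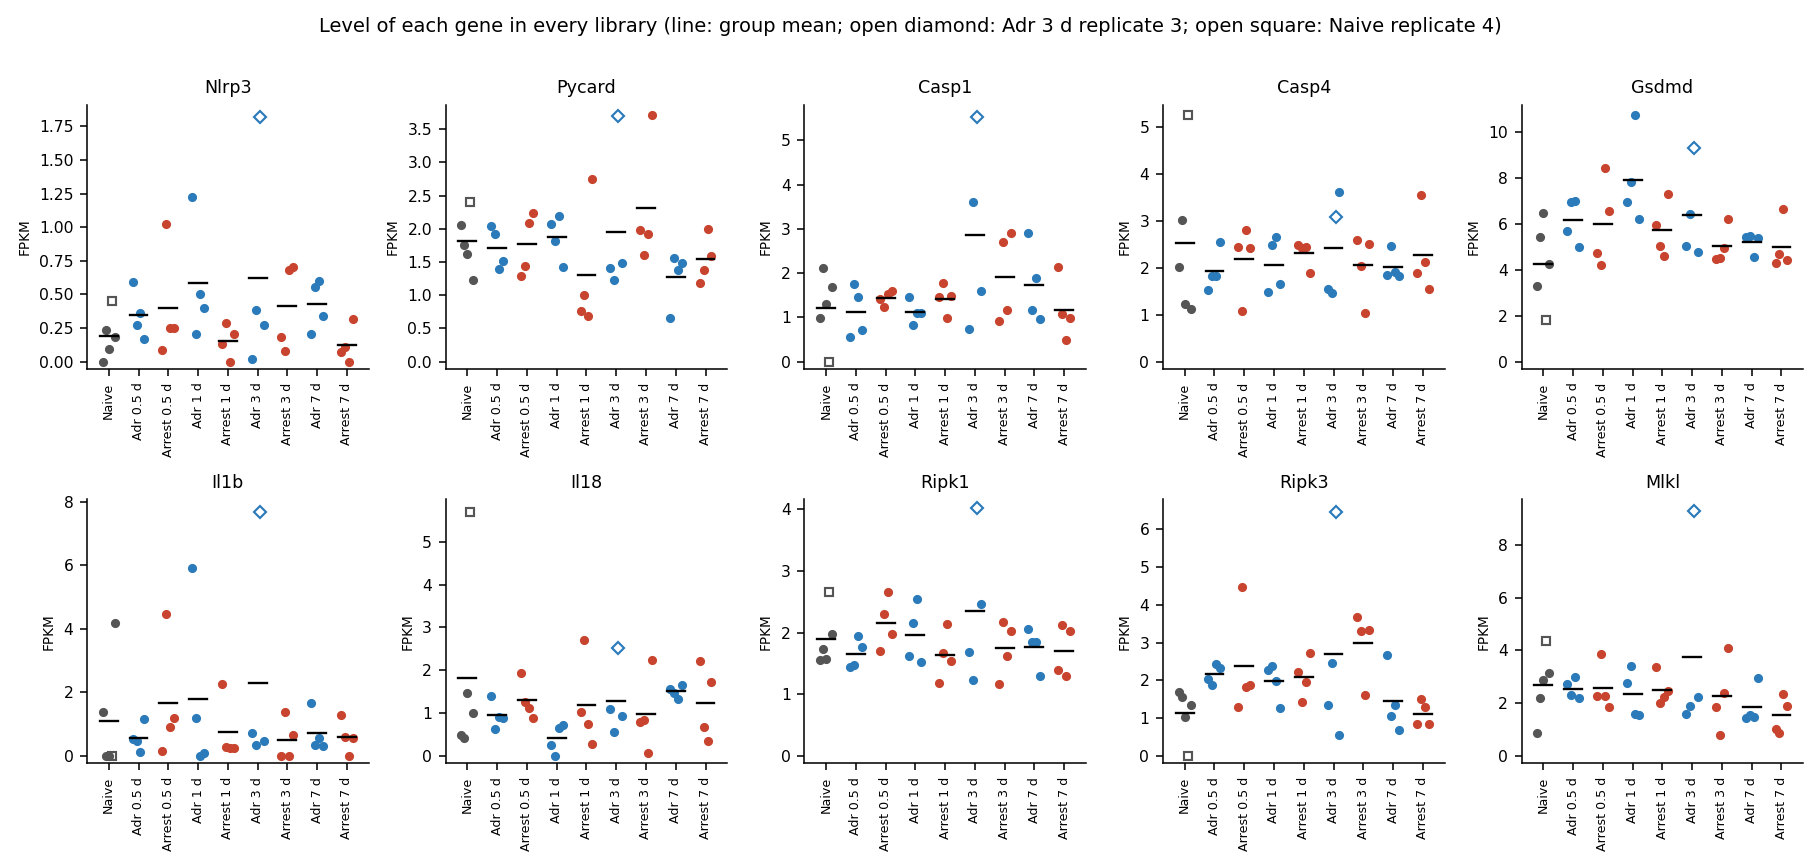
FPKM (y axis, linear, 1 scale per gene) of the 10 genes in each of the 37 libraries, by group (x axis). Grey is Naive, blue Adr and red Arrest, and each black line is a group mean. Adr 3 d replicate 3 (open diamond) is the highest library for 6 of the 10 genes, and Naive replicate 4 (open square) is highest for Casp4 and Il18 but at 0 for Ripk3 and Casp1.

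Gsdmd, which encodes the pore-forming gasdermin D (chromosome 15, 75734176 to 75739257, plus strand, in the table's coordinates, whose build is not named in the sources used here), came nearest to the threshold. The 5 Naive libraries had 3.28, 5.46, 6.47, 1.83 and 4.25 FPKM. At Adr 1 d the 4 libraries had 6.95, 7.83, 10.8 and 6.2 FPKM, and at Arrest 1 d 5.94, 5.06, 4.62 and 7.29. Of the 4 Adr 1 d libraries 3 lay above the whole Naive range, and the lowest overlapped it. The log2 fold change of Adr 1 d over Naive was 0.82 (SE 0.21, 95% interval 0.38 to 1.25, limma adjusted p = 0.065). Without Adr 3 d replicate 3 its size stayed 0.82 and the adjusted p became 0.027, and without Naive replicate 3 they were 0.96 and 0.029. Without Naive replicate 4, the lowest Gsdmd library of all, the difference was 0.61 (adjusted p = 0.14 by limma), and without Adr 1 d replicate 3 the adjusted p was 0.21. The call therefore turned on which library was left out.

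The other groups were closer to Naive in Gsdmd. Its means were 6.17 ± 0.99 FPKM (SD, n = 4) at Adr 0.5 d, 5.995 ± 1.92 at Arrest 0.5 d, 6.39 ± 2.07 at Adr 3 d and 5.06 ± 0.82 at Arrest 3 d, against 4.26 ± 1.82 (n = 5) in Naive. At 7 d they were 5.22 ± 0.43 in Adr and 5.01 ± 1.11 in Arrest. All 8 point estimates were above Naive, by 0.25 to 0.82 on the log2 scale, but the 8 share the same 5 Naive libraries, the lowest of which is replicate 4. Without that library the difference went from 0.45 to 0.25 at Arrest 0.5 d, from 0.51 to 0.31 at Adr 0.5 d and from 0.53 to 0.33 at Adr 3 d. Adr 1 d over Adr 7 d gave 0.50 (SE 0.22, limma adjusted p = 0.46), a comparison in which 0.0423% of all genes were called.

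Nlrp3, the sensor (chromosome 11, 59432394 to 59457782, plus strand), was the least abundant member. It was listed at 0 in Naive replicate 1, Arrest 1 d replicate 3 and Arrest 7 d replicate 3, where 3 fragments would have given 0.047 to 0.057 FPKM. The Naive libraries reached 0.453 FPKM and had a mean of 0.192 ± 0.170 (SD, n = 5). Means of the treated groups ran from 0.125 at Arrest 7 d to 0.625 at Adr 3 d, the second of which rests on replicate 3 (1.82 FPKM, against 0.0186, 0.388 and 0.275 in the other replicates). Its intervals against Naive spanned -0.52 to 0.82, so a log2 difference of 1 lay outside them, although at levels under 1 FPKM the pseudocount compresses any change. Pycard, the ASC adaptor (chromosome 7, 127588880 to 127593039, minus strand), varied from 0.664 to 3.71 FPKM and had Naive and Arrest 3 d means of 1.81 ± 0.44 and 2.31 ± 0.95. Its Arrest 1 d libraries had 0.763, 1.00, 0.692 and 2.75 FPKM, of which 3 were below every Naive library (lowest 1.23) and the other was above every one (log2 fold change -0.35, SE 0.21, adjusted p by limma 0.35).

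The caspase genes Casp1 (chromosome 9, 5298508 to 5307290, plus strand) and Casp4 (chromosome 9, 5308828 to 5336783, plus strand) are neighbours in the table. Casp1 had 0.978, 2.11, 1.31, 0 and 1.68 FPKM in the Naive libraries. The 0 of Naive replicate 4 stands where the other Naive libraries held 48 to 105 fragments, and where 3 fragments would have given 0.0703 FPKM. Adr 3 d was the highest group, with 0.746, 3.6, 5.52 and 1.59 FPKM, and its log2 fold change was 0.72 (SE 0.31, adjusted p by limma 0.29). That value fell to 0.41 without Adr 3 d replicate 3 and to 0.15 without that library and Naive replicate 4. The group means of Casp4 lay between 1.92 FPKM at Adr 0.5 d and 2.52 in Naive, where a single library (replicate 4, 5.25 FPKM) was above the 1.12 to 3.00 of the others. Its 8 differences from Naive were all between -0.16 and 0.03 on the log2 scale, with intervals inside -0.66 to 0.53.

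Il1b, the precursor of a fever-inducing cytokine (chromosome 2, 129206490 to 129213059, minus strand), was the most uneven member. The Naive libraries had 1.37, 0, 0, 0 and 4.17 FPKM, from 41, 0, 0, 0 and 107 fragments. Zero fragments allowed up to 0.099 to 0.120 FPKM in those 3 libraries. At Arrest 0.5 d the values were 0.15, 4.47, 0.911 and 1.19 FPKM, and at Adr 1 d they were 5.92, 1.19, 0 and 0.102. In each of these groups 1 library was several times the rest, and both groups overlapped Naive. The interval for Arrest 0.5 d against Naive ran from -0.66 to 1.57 (log2 fold change 0.45, SE 0.55), and a rise or a fall of this order could not be detected at this spread. By voom the same contrast was 2.99, with an adjusted p of 0.29.

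Il18 (chromosome 9, 50466127 to 50493140, plus strand) encodes the other precursor that caspase-1 matures. The Naive libraries had 0.496, 0.427, 1.48, 5.71 and 1.01 FPKM. At Adr 1 d they had 0.264, 0, 0.662 and 0.715, and at Adr 7 d 1.57, 1.48, 1.32 and 1.67. The Adr 1 d and Adr 7 d libraries did not overlap, but the share of all genes that separate in this way was not counted. The log2 fold change was -0.86 (SE 0.37, limma adjusted p = 0.43), in a comparison where 0.0423% of all genes were called. Adr 1 d against Naive gave -0.76 (SE 0.35, adjusted p = 0.29 by limma) and -0.39 without Naive replicate 4. The Adr 1 d values rest on 0 to 19 fragments a library.

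Ripk3 (chromosome 14, 56022452 to 56026322, minus strand), the kinase that commits a cell to necroptosis, had 1.70, 1.57, 1.03, 0 and 1.36 FPKM in Naive. At Arrest 3 d the libraries had 3.67, 3.31, 1.63 and 3.33 FPKM, of which 3 were above every Naive library and the lowest overlapped them. The log2 fold change was 0.94 (SE 0.31, 95% interval 0.30 to 1.58, limma adjusted p = 0.17), and it was 0.69 without Naive replicate 4. The adjusted p of that contrast ran from 0.067 to 0.31 over the fits that left out 1 library. At Adr 0.5 d all 4 libraries (2.03, 1.89, 2.45 and 2.32 FPKM) lay above the Naive range. The share of all genes that did so was not counted. The difference from Naive was 0.65 on the log2 scale (SE 0.31, adjusted p by limma 0.35), in a comparison where 0.188% of all genes were called. It was 0.40 without Naive replicate 4 (adjusted p by limma 0.62). At Arrest 0.5 d it was 0.66 with that library and 0.41 without it. By 7 d the means were 1.45 ± 0.87 in Adr and 1.12 ± 0.34 in Arrest, against 1.13 ± 0.68 in Naive. Again the 8 contrasts share the Naive libraries, including the one at 0. At Arrest 3 d the summed macrophage markers were at 327 to 575 FPKM and the monocyte markers at 4.69 to 27.8, against 206 to 355 and 2.16 to 4.94 in Naive, and their part in the Ripk3 values was not tested.

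Ripk1 and Mlkl, which act before and after Ripk3 in necroptosis, showed no comparable difference. Ripk1 (chromosome 13, 34186346 to 34221130, plus strand) had 1.55 to 2.65 FPKM in Naive and was the best constrained member, with differences from Naive of -0.14 to 0.15 and intervals inside -0.49 to 0.50. Mlkl (chromosome 8, 112038429 to 112064809, minus strand) had 0.860, 2.19, 2.87, 4.34 and 3.16 FPKM in Naive and 1.02, 0.879, 2.34 and 1.90 at Arrest 7 d, the group with its lowest mean. The Arrest 7 d difference was -0.50 (SE 0.32, 95% interval -1.14 to 0.15). In Adr 3 d replicate 3 Mlkl reached 9.30 FPKM, where its group mates had 1.57, 1.91 and 2.25.

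Arrest was compared with Adr at each time to separate asystole and resuscitation from instrumentation and adrenaline. The share of all genes called was 0% at 0.5 d, 0% at 1 d, 0% at 3 d and 0.00605% at 7 d, and 0 of 10 members were called each time. Each time 0 of 10 members had an unadjusted p of 0.05 or less. Of all genes 3.86% at 0.5 d, 6.59% at 1 d, 5.37% at 3 d and 2.52% at 7 d did. The members' median difference was 0.06 at 0.5 d, -0.06 at 1 d, -0.24 at 3 d and -0.13 at 7 d. At 3 d 8 of the 10 members were below 0, where 48.6% of all tested genes were above 0. The Adr arm of that comparison includes replicate 3, and the members' differences are not given without it. At 1 d the differences nearest the threshold were -0.42 (SE 0.23) for Nlrp3, -0.40 (SE 0.22) for Gsdmd and -0.39 (SE 0.23) for Pycard, each with an adjusted p by limma of 0.79 or 0.80. A test of whether the Arrest minus Adr difference changed with time called 0% of genes and 0 of 10 members. Early against late within an arm, the shares were 0.381% for Arrest 0.5 d against 7 d, 1.89% for Arrest 1 d against 7 d, 0.00605% for Adr 0.5 d against 7 d and the 0.0423% given above for Adr 1 d against 7 d, without a member called.

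A single library was the highest or near the highest of all for every member. Adr 3 d replicate 3 was the highest of 37 for Ripk1, Ripk3, Mlkl, Casp1, Nlrp3 and Il1b, and ranked 2 for Gsdmd and Pycard, 3 for Il18 and 4 for Casp4. All 10 genes were above the median of its 3 group mates, by 0.68 (Casp4) to 2.54 (Il1b) on the log2 scale. This library also differed from its group mates in genes at large, with a chi-square per gene of 350 to 391. Every other pair within a group was at 81.8 or less. The share of all genes for which it was the highest library was not counted. Its ranks are therefore not read as particular to the members. In the same library every immune marker sum was at its maximum, with 1092 FPKM for 10 macrophage genes (at most 575 elsewhere), 84.0 for 7 monocyte genes (at most 27.8) and 35.5 for 12 neutrophil genes (at most 34.0). Its fibroblast sum was also the highest (811 FPKM, at most 475 elsewhere), and its red cell sum was the lowest (806). The part of these cell types in the members' levels was not tested.

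**Figure D3:**
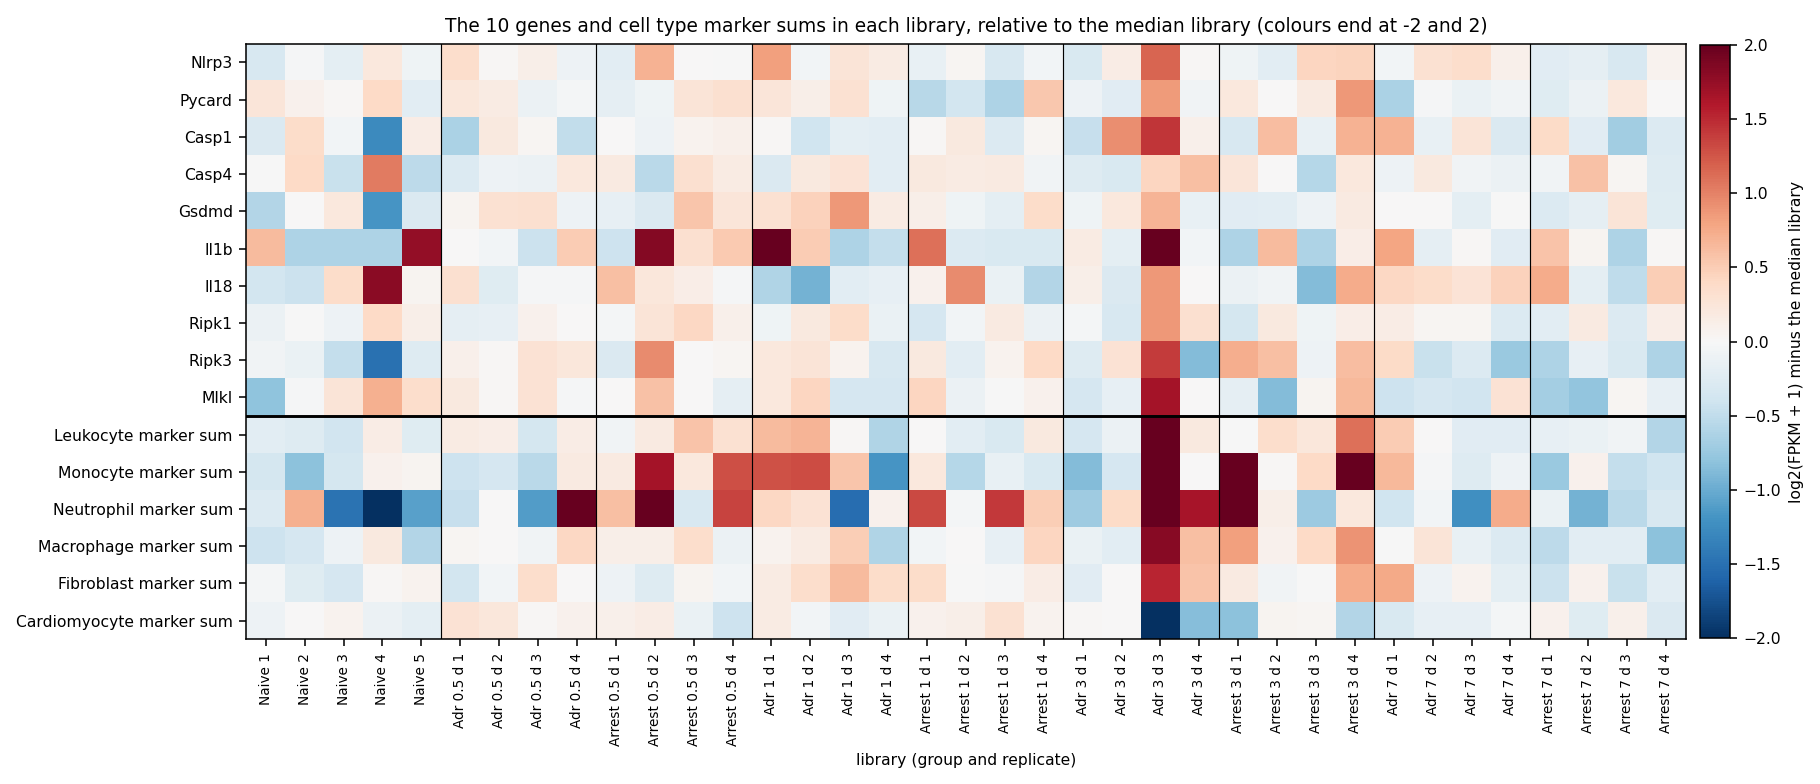
Level of the 10 genes (top) and of 6 cell type marker sums (bottom) in each of the 37 libraries (x axis, ordered by group), as log2(FPKM + 1) minus the row's median over libraries. Red is above and blue below the median, and colours end at -2 and 2. Adr 3 d replicate 3 is red in all 10 genes and in 5 of the 6 sums and blue in the cardiomyocyte sum.

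Among all 37 libraries the 45 pairs of members had a median Pearson r of 0.27 (range -0.40 to 0.60) on the log2(FPKM + 1) scale. Without Adr 3 d replicate 3 the median was 0.07, and the pairs with r above 0.4 went from 10 to 2. The members' median r with the leukocyte marker sum was 0.57 (range 0.13 to 0.62) over 37 libraries and 0.30 (-0.09 to 0.47) without that library. The same medians were 0.49 and 0.27 for the monocyte sum, and 0.44 and 0.25 for the macrophage sum. For the fibroblast sum they were 0.42 and 0.23, and for the cardiomyocyte sum -0.39 and -0.06. For the neutrophil sum they were 0.17 and 0.01. Over 37 libraries the medians for the atrial, T, B, NK, endothelial and red cell sums lay between -0.26 and 0.24. These values are descriptions over libraries that share groups and depth. The genes most alike in pattern followed the same rule of r over 37 libraries. For Gsdmd they were Inpp5b (0.78), Pcolce (0.73) and Cercam (0.68). For Ripk3 they were Clec4a3 (0.77), Capg (0.76) and Cdc42 (0.76), and for Mlkl Taldo1 (0.74), Renbp (0.71) and Ran (0.69). For Ripk1 they were Myo7a (0.71), Sh3pxd2b (0.71) and Rab31 (0.68). Nlrp3 was nearest to Slc15a3 (0.74), Plek (0.73) and Lig1 (0.72), and Il1b to Actg1 (0.73), Mapre1 (0.70) and Arpc5 (0.70). Pycard was nearest to Cd300lb (0.73), Col5a1 (0.71) and Edem1 (0.71), Casp1 to Basp1 (0.70), Septin11 (0.70) and Arl6ip1 (0.70), Casp4 to Rhou (0.67), Rnf135 (0.61) and Mppe1 (0.61), and Il18 to Ripk2 (0.63), Cda (0.62) and Cwc25 (0.62). Without Adr 3 d replicate 3 all 3 genes were replaced by others for Ripk3 (Lsm4, U2af1 and Gm8129), Casp1 (Dgcr2, Zfp982 and Samd4b) and Il18 (Vps37b, Wscd1 and Snn), and for each of the other 7 members 1 or more of the 3 named genes stayed among the 3 most alike.

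Genes that act beside the members were read from 5 lists of 66 genes, of which 53 were tested. Against Naive 4 rose and 1 fell at Arrest 0.5 d, 4 rose and 0 fell at Arrest 1 d, and 0 passed the threshold at Arrest 3 d, Arrest 7 d or any Adr time. The shares of all tested genes called were 3.21% at Arrest 0.5 d and 7.11% at Arrest 1 d. The 4 of 53 at Arrest 1 d are near that background, and the 5 of 53 at Arrest 0.5 d are a larger share than it. The lists were chosen with earlier results of these data known and were not tested as sets. Neither count is therefore read as a result about the lists. Direct comparison of Arrest with Adr called 0 of 53 at every time, so no difference between the arms was shown for them. The 4 that rose at Arrest 0.5 d were Tnfrsf1a, Birc2, Ninj1 and Irak3, and at Arrest 1 d Myd88 took the place of Birc2. Where a group is said below not to overlap Naive, the share of all genes that did so was not counted.

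In the necrosome and TNF receptor list (23 of 23 tested) 2 genes rose. Tnfrsf1a, the TNF receptor above RIPK1, had 15.6, 16.4, 18.7, 16.9 and 21.9 FPKM in Naive and 43.8, 44.6, 40.1 and 43.7 at Arrest 0.5 d. It had 43.1, 38.2, 35.8 and 47.2 at Arrest 1 d, so both groups lay wholly above Naive. The log2 fold changes were 1.23 (SE 0.18, limma adjusted p = 0.00054) and 1.16 (SE 0.18, limma adjusted p = 0.00043). Adr 0.5 d libraries had 23.4, 25.3, 33.2 and 40.1 FPKM, all above Naive as well, with a difference of 0.71 (adjusted p by limma 0.078). Arrest 0.5 d minus Adr 0.5 d was 0.52 (95% interval 0.12 to 0.91, adjusted p by limma 1). By Arrest 7 d Tnfrsf1a was at 20.4 to 26.4 FPKM, lower than at Arrest 0.5 d and 1 d (adjusted p by limma 0.029 and 0.022), calls that 7 and 5 of the 37 fits without 1 library lost. Birc2, a ubiquitin ligase of the receptor complex that restrains RIPK1, had 4.62 to 6.26 FPKM in Naive and 8.35, 7.21, 8.47 and 11.4 at Arrest 0.5 d (log2 fold change 0.52, SE 0.13, adjusted p by limma 0.030). That call was lost without Naive replicate 2, Arrest 0.5 d replicate 1 or Arrest 0.5 d replicate 4.

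In the list of other lysis effectors (6 of 8 tested) 1 gene rose, Ninj1, which ruptures the plasma membrane after pores have formed. The Naive libraries had 29.2, 33.0, 45.5, 45.8 and 26.5 FPKM, those of Arrest 0.5 d 88.6, 108, 55.7 and 53.6, and those of Arrest 1 d 77.1, 81.6, 113 and 64.2. Both Arrest groups were above every Naive library. The differences were 1.04 (SE 0.26, adjusted p by limma 0.025) and 1.2 (SE 0.26, adjusted p by limma 0.0049). The first was lost in 4 of 37 fits without 1 library (Naive replicates 1 and 5, Arrest 0.5 d replicates 1 and 2) and the second in none. Ninj1 was at 42.9 to 84.5 FPKM at Adr 0.5 d (0.80, adjusted p by limma 0.16) and at 33.6 to 48.1 FPKM at Arrest 7 d.

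In the IL-1 and IL-18 signalling list (11 of 14 tested, Il1a, Il1rn and Il18rap being too low) 2 genes rose. Irak3, an inhibitor of IL-1 receptor and Toll-like receptor signals, had 1.47 to 2.70 FPKM in Naive, 3.83 to 5.05 at Arrest 0.5 d and 3.80 to 5.77 at Arrest 1 d, with no overlap. Its differences were 0.76 (SE 0.19, adjusted p by limma 0.026) and 0.82 (SE 0.19, adjusted p by limma 0.0085). The first was lost without Naive replicate 2 or any of Arrest 0.5 d replicates 2, 3 and 4. Myd88, the adaptor of those receptors, was called at Arrest 1 d (8.56 to 11.9 FPKM against 2.83 to 6.92 in Naive, 0.74, SE 0.23, adjusted p by limma 0.045), a call lost in 14 of 37 fits without 1 library and in 8 of the other 14.

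In the list of other inflammasome sensors (5 of 12 tested) Aim2, a sensor of cytosolic DNA, was the gene that fell. It had 0.764 to 1.66 FPKM in Naive and 0.245, 0.625, 0.515 and 0.513 at Arrest 0.5 d (log2 fold change -0.52, SE 0.15, adjusted p by limma 0.049). That call was lost in 29 of 37 fits without 1 library. The low values were not particular to early Arrest. The difference from Naive was -0.64 at Arrest 7 d (95% interval -0.95 to -0.33, adjusted p by limma 0.37), -0.57 at Adr 1 d (adjusted p by limma 0.069) and -0.53 at Adr 7 d (adjusted p by limma 0.49), and the test over all 9 groups gave an adjusted p by limma of 0.032. Of the NLRP3 regulators (8 of 9 tested, among them Nek7, Txnip and P2rx7) 0 were called in any comparison. In the same early Arrest groups Kdr and Cdh5, of 4 endothelial markers, were the only tested cell type markers called against Naive, both lower. Kdr was called at 0.5 d and both at 1 d. The endothelial marker sum overlapped Naive, at 127 to 168 FPKM at Arrest 0.5 d and 102 to 161 at Arrest 1 d, against 140 to 151. Low markers were left out, so 5 of 12 neutrophil, 1 of 5 T cell and 1 of 4 NK cell markers were tested. The leukocyte sums were 16.2 to 25.8 FPKM at Arrest 0.5 d and 13.5 to 19.7 at Arrest 1 d, against 12.9 to 19.0 in Naive, and the part of cell composition in these calls was not tested.

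The calls at Arrest 1 d also moved with a covariate that is confounded with that contrast. Every Arrest 1 d library has a lower description number than every Naive library, so group and number cannot be told apart there. With the number in each sample's description label as a covariate (its meaning is not stated), the adjusted p by limma at Arrest 1 d was 0.059 for Tnfrsf1a, 0.14 for Ninj1 and 0.076 for Irak3. Among the members, the adjusted p by limma with this covariate was 0.29 for Gsdmd at Adr 1 d and 0.45 for Ripk3 at Arrest 3 d. The Arrest 0.5 d calls of Tnfrsf1a and Irak3 held under all 14 other settings, that of Ninj1 was lost under 4, that of Birc2 under 1 and that of Aim2 under 10 of 13.

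**Figure D4:**
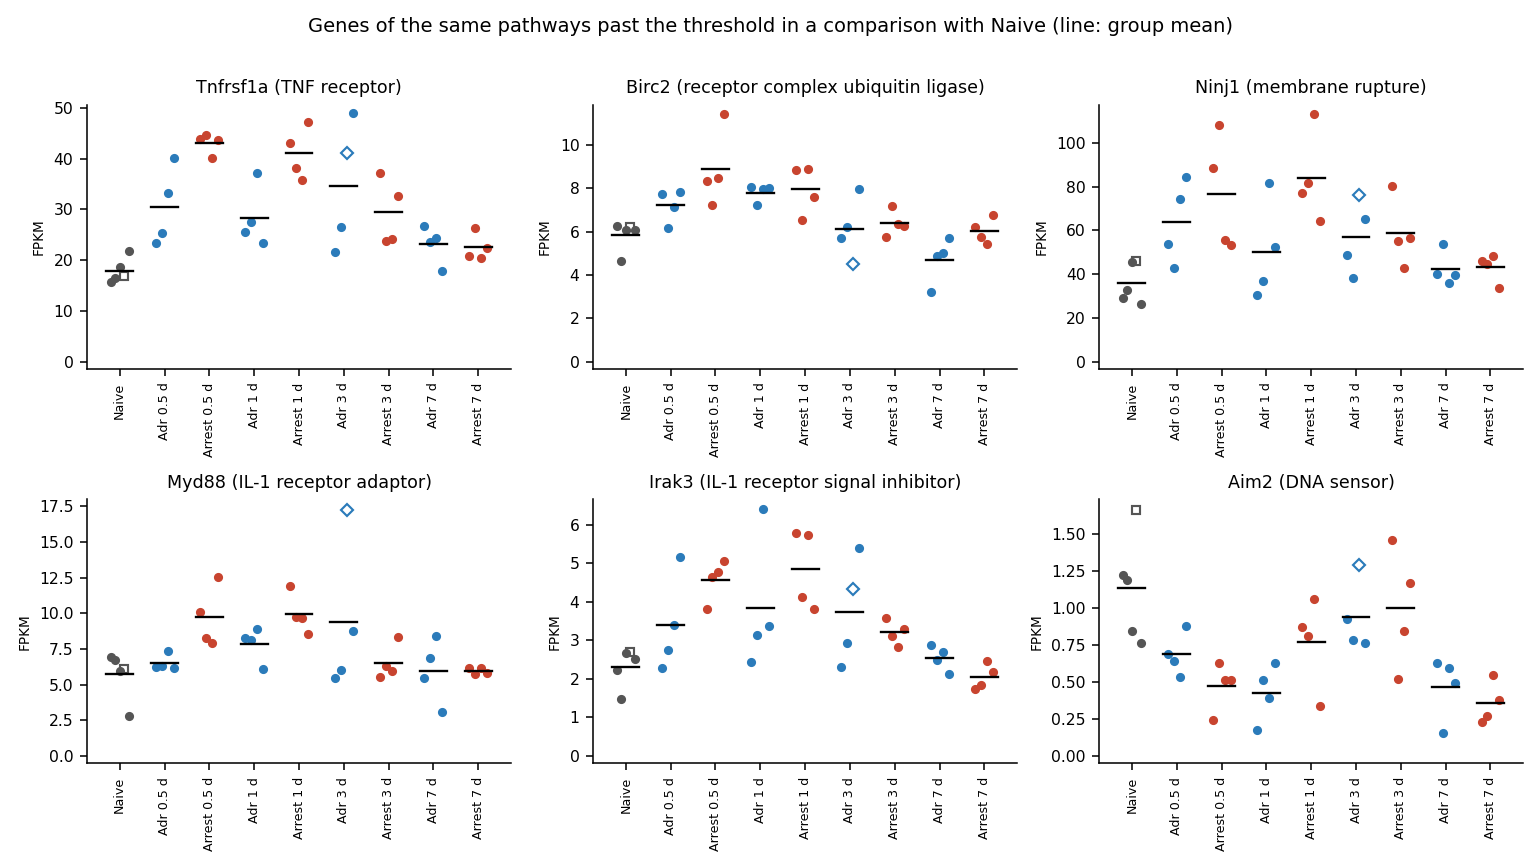
FPKM (y axis, linear) of the 6 pathway genes past the adjusted threshold in a comparison with Naive, in each library by group (x axis), with symbols and colours as in the plot of the 10 genes. Tnfrsf1a, Ninj1 and Irak3 are above every Naive library at Arrest 0.5 d and 1 d, and Aim2 is highest in Naive.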

How the data were processed

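Whole-transcriptome RNA-seq of mouse left ventricle (37 libraries, 9 groups taken from the labels) was deposited as 1 table of FPKM values per gene. The authors aligned paired-end reads with HISAT2, and the counting tool and genome build are not given in the sources used here. The study set aside a poor-quality 3-day Adr library, the table holds 4 libraries of that group, and the labels single none out, so all were kept. Library depth is 13.2 to 30.2 M fragments, recovered from the FPKM steps. All 659473 values above 0 were whole fragments within 0.01 fragments.

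FPKM values were rescaled by median-ratio factors and taken as log2(FPKM + 1). The factor was 1.0131 in every library, so the values as deposited were already on a common median-ratio scale. The rescaling left the libraries unchanged relative to each other, and a fit without it could differ little. One limma fit (version 3.58.1, R 4.3.3, trended prior, 1 mean per group) held all 37 libraries, and p-values were adjusted by Benjamini-Hochberg over 16530 genes with a threshold of 0.05. All p-values are two-sided. It was tested on generated data first. The labels do not say that the libraries come from separate animals, so p-values measure the spread between these libraries. No pair of libraries within a group looked like 1 library deposited in duplicate (lowest chi-square per gene 11.69 over 58 pairs). A count of 0 was read as up to 3 fragments, which covers counting error only.

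The 10 members, the pathway lists and the marker lists were chosen with earlier results of these data known. From the pathway lists the text names each gene past the threshold in the test over 9 groups or in a comparison with Naive, up to 6 a list. For pattern likeness it names the 3 genes with a mean of at least 1 FPKM and the highest r. Alternatives covered normalization, pseudocount, filter, gene length, library weights, covariates, voom, a replicate block and leaving out libraries. Gene coordinates are those of the table, since 2.852% of the IDs shared with GENCODE M21 had the same start there.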

Additional observations from a re-analysis of the deposited data

Results flagged for a closer look

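In 11 of 90 sets (10 genes in 9 groups) 1 library lay far from the others of its group by Dixon's criterion, which chance alone meets in about 5% of sets. That rate assumes independent sets and normally distributed values, whereas these are FPKM with zeros among them and the sets share libraries. The share over all genes was not counted, so the 11 are not read as a result about the members. Of the 11, 3 were Adr 3 d replicate 3, with 9.30 FPKM for Mlkl (others 1.57 to 2.25), 3.70 for Pycard (1.22 to 1.48) and 7.69 for Il1b (0.344 to 0.713). Naive replicate 4 was far above its group in Il18, at 5.71 FPKM (0.427 to 1.48). At Arrest 1 d replicate 4 was high in Pycard at 2.75 FPKM (0.692 to 1.00) and low in Casp4 at 1.89 (2.42 to 2.49), and replicate 1 was high in Il1b at 2.28 (0.244 to 0.271). At Adr 7 d replicate 4 was high in Mlkl at 2.96 FPKM (1.43 to 1.56), replicate 2 high in Casp4 at 2.47 (1.82 to 1.91) and replicate 3 low in Gsdmd at 4.58 (5.40 to 5.47). At Arrest 7 d replicate 3 was high in Gsdmd, at 6.65 FPKM (4.28 to 4.68).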

How the results depend on the processing

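No member was called under any normalization, pseudocount (1 or 0.1), filter, covariate, weighting or voom setting. Leaving out 1 library at a time, the number of members called for Adr 1 d against Naive ran from 0 to 1, the called gene being Gsdmd without Naive replicate 3 or without Adr 3 d replicate 3, and it was 0 in the other 17 comparisons. A filter on a mean of at least 1 FPKM removed Nlrp3 and left 9 members, with an adjusted p of 0.0504 for Gsdmd at Adr 1 d. Without Naive replicate 4 the member tests at an unadjusted p of 0.05 or less fell from 11 to 4 of 160. Leaving out both Adr 3 d replicate 3 and Naive replicate 4, a choice made after seeing the data, called 0 members and gave Gsdmd at Adr 1 d a log2 fold change of 0.61 (limma adjusted p = 0.070). The title numbers showed no sign of marking shared animals. Over 144 same-number pairs the mean correlation of deviations from the group means was -0.0081, and 1 library correlated best with its own number. A mean of this kind cannot exclude a link within some pairs. With the title number as a replicate block 0 members were called. Sizes, unlike calls, moved by more than 1 SD in 79 refits of a member and by less in 2145, those 79 mostly with a pseudocount of 0.1, voom or the description number as covariate, in genes with few fragments (Ripk3 at Arrest 3 d was 2.32 by voom). No direction of a called pathway gene reversed. Exact tests for members below the filter were not needed, as none was below it.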
